A study of Mus musculus with 12 samples.

Results

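The genes described here are 10 imprinted genes grouped as growth genes: Zim1, Peg3, Igf2, H19, Dlk1, Cdkn1c, Plagl1, Mest, Grb10 and Igf2r. The list was chosen by measured values of these arrays: the signals of Zim1 and Peg3, which lie among the highest in the nucleus pulposus (NP), the gelatinous core of the intervertebral disc. Each gene was taken by its symbol on the array, and 9 of the 10 were measured, each by 1 probe set, of 19505 genes named in all. H19 had no probe set under its symbol.

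RNA was measured on Clariom S Mouse arrays in the NP and in the annulus fibrosus (AF), the fibrous ring around it, of lumbar discs between L1 and S1. The mice were C57BL/6 and 12 months old. They were either wild type (WT) or TonEBP +/-, that is, haploinsufficient for TonEBP, the transcription factor encoded by Nfat5 through which cells adapt to high osmolarity. The 4 groups, AF and NP of each genotype, held 3 samples each. A sample was the pooled disc tissue of 1 animal, and the samples of AF and NP are not tied to animals in the labels. Values are log2 signals, so a difference of 1 is 2-fold. Signals of different genes come from different probes and were not set against each other.

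Imprinted genes are transcribed mainly from the copy inherited from 1 parent. The growth-promoting ones, such as Igf2, Peg3, Plagl1, Mest and Dlk1, are as a rule read from the paternal copy. Growth-limiting ones, such as Igf2r, Cdkn1c and in most tissues Grb10, are read from the maternal copy, as are Zim1 and the noncoding RNA H19. Many are abundant in the embryo and are turned down after birth. The array measures the RNA of both parental copies together, so these data say nothing of imprinting itself.

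Zim1 and Peg3 are neighbours on mouse chromosome 7 (RefSeq annotation of GRCm38.p6) and belong to the imprinted Peg3 domain. On the other side of Peg3 lies Usp29, a deubiquitinase gene of the same domain, which is read from the opposite strand. The start sites of Peg3 and Usp29 are 164 bases apart, and their windows from 250 bases before to 50 bases after the start share 263 bases. The sequences of Zim1 and Peg3 are shown because these genes carry the largest differences between the tissues, and those of Plagl1 and Igf2r because they were the other members whose windows held the E-box CACGTG. All run 5′ to 3′ on the gene's own strand, and are credited to RefSeq. The Zim1 window, chr7:6696383-6696682 on the minus strand, has its CpG dinucleotides in capitals. In the Peg3 window, chr7:6730370-6730669 on the minus strand, capitals mark TTTCCA (the complement of the TonEBP core TGGAAA), the Plagl1 site GGGGCCCC and the cAMP response element TGACGTCA. In the Plagl1 window, chr10:13090582-13090881 on the plus strand, and the Igf2r window, chr17:12769657-12769956 on the minus strand, they mark CACGTG.
Zim1: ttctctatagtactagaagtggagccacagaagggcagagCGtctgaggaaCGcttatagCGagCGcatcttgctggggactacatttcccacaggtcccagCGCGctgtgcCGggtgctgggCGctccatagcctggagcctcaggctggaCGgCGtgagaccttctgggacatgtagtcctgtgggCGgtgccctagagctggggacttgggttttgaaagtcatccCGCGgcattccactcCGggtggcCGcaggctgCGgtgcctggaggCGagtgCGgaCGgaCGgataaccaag
Peg3: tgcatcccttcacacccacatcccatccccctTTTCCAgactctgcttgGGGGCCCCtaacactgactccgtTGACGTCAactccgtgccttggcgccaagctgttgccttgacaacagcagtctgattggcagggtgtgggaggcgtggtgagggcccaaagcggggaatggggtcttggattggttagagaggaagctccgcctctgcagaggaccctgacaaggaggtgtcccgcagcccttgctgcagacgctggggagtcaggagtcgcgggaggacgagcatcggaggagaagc
Plagl1: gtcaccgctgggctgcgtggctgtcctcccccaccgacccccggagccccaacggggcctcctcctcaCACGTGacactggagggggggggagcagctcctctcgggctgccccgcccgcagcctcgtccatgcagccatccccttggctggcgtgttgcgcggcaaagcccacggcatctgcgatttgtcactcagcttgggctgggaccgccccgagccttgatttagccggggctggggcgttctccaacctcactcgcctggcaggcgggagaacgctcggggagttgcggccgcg
Igf2r: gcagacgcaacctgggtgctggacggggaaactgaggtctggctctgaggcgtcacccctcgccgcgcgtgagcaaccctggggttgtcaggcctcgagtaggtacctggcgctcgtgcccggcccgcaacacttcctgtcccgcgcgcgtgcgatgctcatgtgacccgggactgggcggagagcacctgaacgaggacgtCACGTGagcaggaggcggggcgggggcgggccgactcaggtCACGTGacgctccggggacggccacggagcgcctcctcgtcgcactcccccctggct

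The Zim1 window holds 20 CpG dinucleotides and that of Peg3 13, while those of Plagl1 and Igf2r hold 26 and 34. Over 32851 mouse windows of 300 bases the median was 7 and the quartiles 3 and 20. The matches in Peg3 start at base 33 (TTTCCA), 50 (GGGGCCCC) and 73 (TGACGTCA) of the window. On either strand, TGGAAA stands in 21.4% of all windows, GGGGCCCC in 1.08%, TGACGTCA in 1.79% and CACGTG in 7.15%. Of the 14 windows of the 8 members that have one, 2 hold TGGAAA (Peg3 and Dlk1), 1 each GGGGCCCC and TGACGTCA (Peg3), and 2 CACGTG (Plagl1 and Igf2r). The hypoxia element core ACGTG, which overlaps CACGTG, stands in windows of Dlk1, Igf2, Igf2r and Plagl1, and in 19.6% of all windows. No member window held the YY1 site GCCATNTT, the brachyury site TCACACCT or the TATA box TATAAA, found in 6.05%, 1.28% and 13.6% of all windows. These matches describe letters, not bound sites.

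Some facts of the arrays bear on all that follows. The medians of the AF arrays ran from 7.43 to 7.64 and those of the NP arrays from 6.82 to 6.87, and the median cluster lay lower in NP by -0.84 log2 in WT and -0.75 in TonEBP +/-. A gene counted as above background where its signal passed the 95th percentile of the 23 background probe sets on the same array, 7.11 to 7.98 log2. Nfat5 differed between the genotypes by 0.09 log2 in AF (95% CI -0.77 to 0.94) and 0.50 in NP (-0.35 to 1.36), with limma adjusted p = 0.923 and 1, and it is not known whether its probes lie in the deleted stretch. The NP and notochord markers (9 of 10 measured) averaged 14.1 to 14.3 on NP arrays and 9.12 to 11.1 on AF arrays, and 7 were higher in NP. Noto ran the other way, by -0.64 log2 in WT and -1.10 in TonEBP +/- (0.099 and -0.41 with array medians subtracted). Foxa2 was above background on no array. The AF and tendon markers averaged 9.62 to 10.8 in AF and 7.37 to 7.95 in NP, Col1a1 lying at 10.92 to 17.66 and 7.87 to 8.78. Fmod, a proteoglycan on that list, ran the other way and was higher in NP by 3.51 log2 in WT and 5.79 in TonEBP +/-. Scx, Tnmd and Mkx on the same list were above background on no array. The neutrophil and myeloid precursor list averaged 15.0 to 15.5 on AF arrays of WT and 16.1 to 16.8 on those of TonEBP +/-, and on NP arrays 10.8 to 12.2 and 8.54 to 10.1. The endothelial list was above background for 0 of 7 markers in NP. AF array 1 of WT had the highest NP marker level of the AF arrays. It also had the lowest mean of 12 cartilage markers, 9.54 against 11.4 and 11.7 on the other WT arrays and 10.0 to 10.9 in TonEBP +/-. AF array 3 of TonEBP +/- had the widest spread of signals (interquartile range 3.11 against 2.36 to 2.66 in the other AF arrays).

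Across the tissues, 6 of the 9 measured members lay higher in NP than in AF with no overlap, in both genotypes: Zim1, Peg3, Plagl1, Grb10, Igf2r and, by a small margin, Cdkn1c. Of all 22206 clusters, 23.9% lay higher in NP without overlap in WT and 20.1% in TonEBP +/-, and 57.8% and 53.6% lay lower. The list was chosen with high NP signals in view, so this contrast is a description and carries no test for the members. Igf2, the ligand, lay lower in NP in WT, and Dlk1 and Mest were above background on no array.

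**Figure D1:**
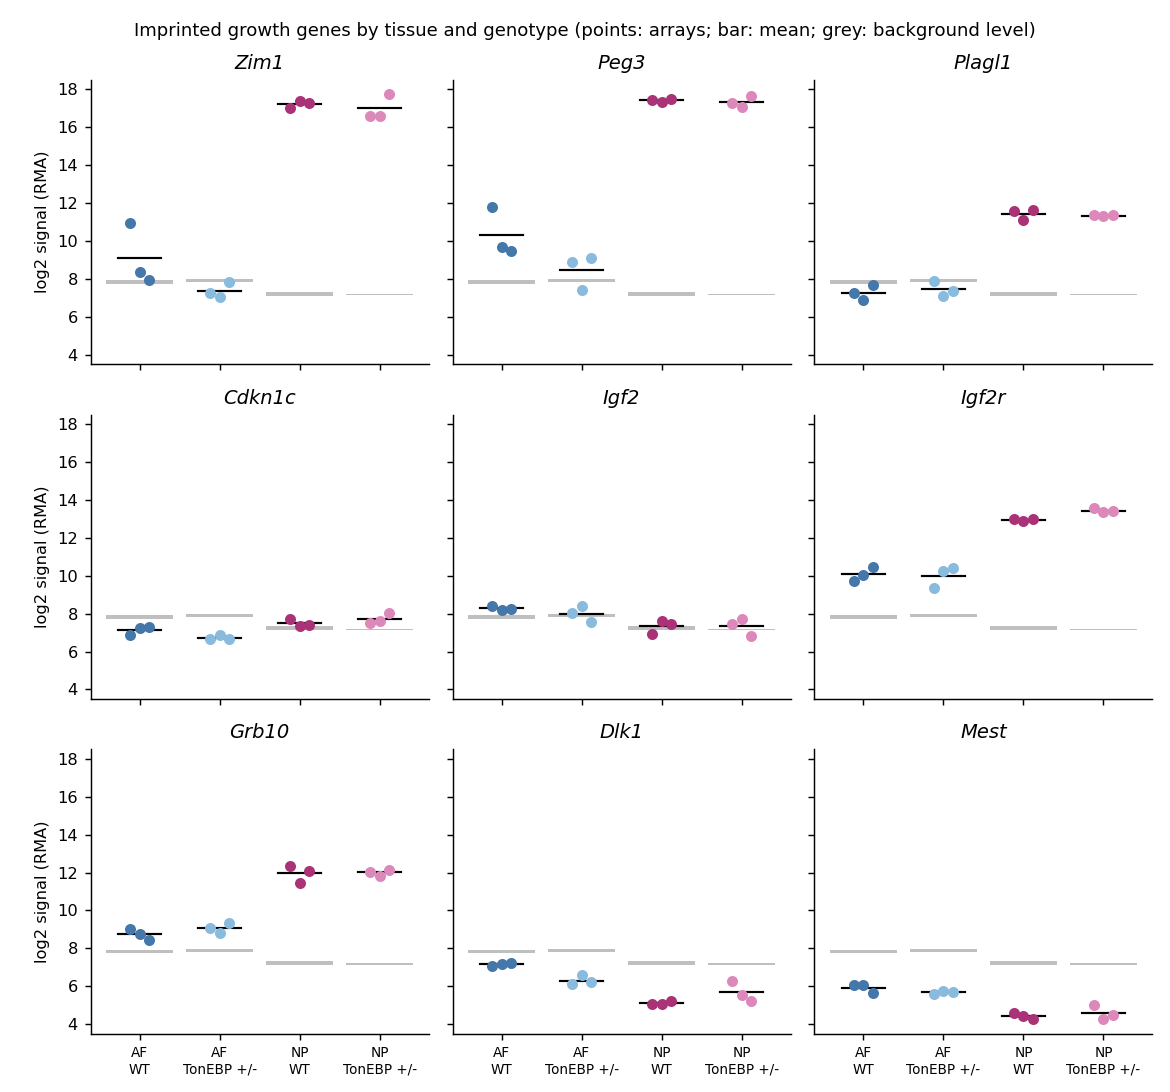
Log2 signal of the 9 measured members on each of the 12 arrays, by tissue and genotype, with group means and the background level. Zim1 lies between 7.06 and 10.92 in AF and between 16.60 and 17.75 in NP, and Peg3 between 7.40 and 11.77 and between 17.04 and 17.65.

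Zim1 encodes a zinc finger protein of the Peg3 domain. AF arrays gave it log2 signals of 10.92, 8.37 and 7.94 for WT mice and 7.25, 7.06 and 7.83 for TonEBP +/- mice. NP arrays gave 17.01, 17.37 and 17.29 for WT and 16.60, 16.60 and 17.75 for TonEBP +/-. Every NP array lay far above every AF array, and in AF of TonEBP +/- the gene was above background on 0 of 3 arrays. The NP mean exceeded the AF mean by 8.15 log2 in WT, or 283-fold, the 7th largest rise of all clusters. Without AF array 1 of WT, the highest of the AF arrays, the difference was 9.07 log2, or 537-fold. In TonEBP +/- the NP mean lay at least 9.08 log2, or at least 540-fold, above the background level of the AF arrays. The order of its group means was NP of WT (17.2 ± 0.189, SD, n = 3), NP of TonEBP +/- (17.0 ± 0.661), AF of WT (9.08 ± 1.61) and AF of TonEBP +/- (7.38 ± 0.402), and the ranges of both NP groups overlapped.

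Peg3 is a large zinc finger transcription factor known from maternal behaviour, fat storage and p53-dependent cell death. In AF of WT it read 11.77, 9.67 and 9.49, and in AF of TonEBP +/- it read 8.90, 7.40 and 9.12. In NP of WT it read 17.45, 17.34 and 17.51, and in NP of TonEBP +/- 17.25, 17.04 and 17.65. The NP arrays of both genotypes lay close together, while the AF arrays were widely spread and AF array 1 of WT was the highest of them. The NP mean was higher than the AF mean by 7.12 log2 in WT (139-fold, the 21st largest rise) and by 8.84 in TonEBP +/- (457-fold, the 7th). Without AF array 1 of WT the difference in WT was 7.85 log2, or 231-fold. Its group means followed the same order as those of Zim1, from 17.4 ± 0.0861 (SD, n = 3) in NP of WT, 17.3 ± 0.310 in NP of TonEBP +/- and 10.3 ± 1.27 in AF of WT down to a mean of 8.47 ± 0.936 in AF of TonEBP +/-, with overlapping NP groups.

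Usp29, the neighbour that shares the Peg3 start region and is no member of the list, had the same tissue pattern. It read 13.03, 12.96 and 13.63 in NP of WT and 13.10, 13.05 and 13.26 in NP of TonEBP +/-, and was above background on 0 of 6 AF arrays, where it read 4.93 to 7.47. It was at least 41.4-fold higher in NP in WT and at least 37.5-fold in TonEBP +/-. Going by RefSeq order, the members have 32 distinct neighbours that are not on the list, counting the 2 nearest measured protein-coding genes on each side. Of these, 19 were above background on no array, 3 exceeded AF by more than 1 log2 in NP of WT (Usp29 by 6.66, Cobl next to Grb10 by 3.53, and Ltv1 near Plagl1 by 1.22), and 17 lay more than 1 log2 lower. The median cluster itself lay at -0.84 log2 in this contrast, and the share of all clusters past either cut was not computed. The 17 include genes above background on no array, such as Dio3 and Kcnq1, so their count is no result about the neighbours. The olfactory receptor genes beyond Zim1 and Aurkc beyond Usp29 were not among the 3.

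**Figure D2:**
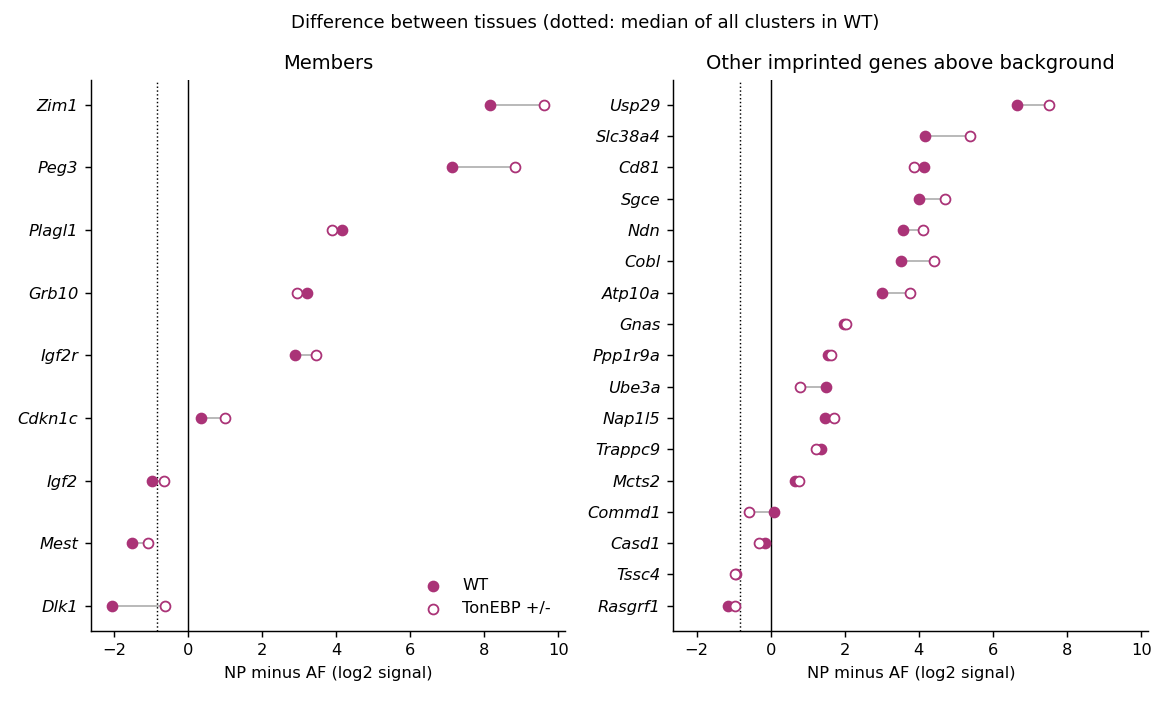
Difference of NP and AF means in log2 for the 9 measured members (left) and for other imprinted genes above background (right), in WT (filled) and TonEBP +/- (open). A dotted line marks the median of all clusters in WT, and values from tissues without signal above background are measured differences, not levels. Zim1 (8.15 in WT) and Peg3 (7.12) stand far from the other members, of which Plagl1, Grb10 and Igf2r lie between 2.88 and 4.16 in WT.

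Of the members that act on insulin-like growth factor signalling, Igf2r and Grb10 lay higher in NP and Igf2 did not. Igf2r is the receptor that carries Igf2 to lysosomes for breakdown, as well as mannose-6-phosphate-tagged enzymes. It read 9.71, 10.04 and 10.47 in AF of WT and 9.35, 10.23 and 10.39 in AF of TonEBP +/-, against 12.99, 12.88 and 12.99 in NP of WT and 13.54, 13.35 and 13.42 in NP of TonEBP +/-. The AF groups overlapped and the NP groups did not, and NP exceeded AF 7.35-fold in WT and 10.9-fold in TonEBP +/-. Grb10, an adaptor that damps signalling from the insulin and Igf1 receptors, read 9.01, 8.75 and 8.45 in AF of WT and 9.07, 8.80 and 9.33 in AF of TonEBP +/-. Its NP values were 12.33, 11.45 and 12.10 for WT and 12.03, 11.83 and 12.15 in TonEBP +/-. They overlapped between the genotypes, and were 9.32-fold and 7.65-fold those of AF.

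Igf2, the fetal growth factor, was near the background level throughout. It read 8.42, 8.19 and 8.24 in AF of WT and 8.01, 8.43 and 7.55 in AF of TonEBP +/-. NP arrays gave 6.90, 7.59 and 7.47 for WT and 7.47, 7.71 and 6.82 for TonEBP +/-, above background on 2 of 3 arrays of each genotype. NP lay below AF by -0.96 log2 in WT with no overlap and by -0.66 in TonEBP +/- with overlap. With array medians subtracted these differences were -0.22 and 0.03 log2. No probe set bore the symbol H19. A cluster named for Mir675, the microRNA that lies within H19, also lists a noncoding RNA transcript on the platform and may read H19 RNA. It read 6.66 to 7.65 in AF and 4.19 to 4.80 in NP and was above background on no array.

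Plagl1, a zinc finger transcription factor that has been placed at the centre of a network of imprinted genes, was an NP gene in these discs. It read 7.26, 6.86 and 7.69 in AF of WT and 7.90, 7.11 and 7.38 in AF of TonEBP +/-, above background on 0 of 6 AF arrays. On NP arrays it read 11.57, 11.09 and 11.63 for WT and 11.36, 11.31 and 11.35 for TonEBP +/-, on all 6 arrays above background. NP exceeded the AF background level at least 12.1-fold in WT and at least 10.8-fold in TonEBP +/-. Cdkn1c, the cyclin-dependent kinase inhibitor p57, crossed the background level in NP alone, where that level was lower (7.11 to 7.33 log2 against 7.73 to 7.98 in AF). Its NP signals were 7.73, 7.35 and 7.37 in WT and 7.52, 7.59 and 8.03 in TonEBP +/-, and its AF signals ran from 6.64 to 7.31. The NP mean of Cdkn1c lay above its AF mean by 0.35 log2 in WT and 0.99 in TonEBP +/- (SE 0.229 each). No fold is given for it, since the mean background level of the AF arrays exceeds its mean NP signal in each genotype. Dlk1, a membrane protein related to Notch ligands, read 6.13 to 7.24 in AF and 5.04 to 6.29 in NP, and Mest, a hydrolase-like protein of mesoderm, 5.58 to 6.08 and 4.27 to 5.01. For both, a level cannot be given in either tissue.

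Among the members, the largest genotype differences in AF were those of Peg3 and Zim1. Peg3 was lower in TonEBP +/- than in WT by -1.84 log2 (SE 0.503, 95% CI -2.90 to -0.77, limma adjusted p = 0.0425), or 3.58-fold, and it was the only member that passed the test, beside 6.07% of all clusters (3.31% lower). In AF of TonEBP +/- Peg3 was above background on 2 of 3 arrays, and array 2 read 7.40 against a background level of 7.83. Without that array Peg3 differed by -1.30 log2 (limma adjusted p = 0.0721). Zim1 differed by -1.70 log2 (SE 0.554, 95% CI -2.87 to -0.52, adjusted p = 0.0782) and did not pass. Since Zim1 was not above background in AF of TonEBP +/-, its WT mean was at least 2.25-fold above the background level there. That mean rests largely on AF array 1 of WT, which read 10.92 against 8.37 and 7.94 on arrays 2 and 3. For Zim1, Peg3 and Dlk1, all 3 TonEBP +/- arrays lay below all 3 WT arrays, as did 12.3% of all clusters. Leaving out each of the 12 arrays in turn, Peg3 passed once, without AF array 3 of WT, with adjusted p from 0.0451 to 0.135 and differences from -2.25 to -1.11. With the 6 AF arrays alone the adjusted p was 0.164.

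AF array 1 of WT stood above the other AF arrays in Zim1 and Peg3, by 2.77 and 2.19 log2 over the mean of WT arrays 2 and 3. The same array stood higher by 2.20 in Krt8, 3.10 in Krt19 and 4.35 in Car3, which are NP markers. The mean of the NP and notochord list on AF arrays was 11.1, 9.61 and 9.59 for WT against 9.12, 9.33 and 9.69 for TonEBP +/-, so the genotypes overlapped. Of its 9 measured markers, 7 were above background on all AF arrays of WT and 3 on all of TonEBP +/-, and 1 (Krt19, -2.19 log2, adjusted p = 0.0476) passed the genotype test in AF, with a list median of -0.53 against -0.04 over all clusters. Without AF array 1 of WT, Peg3 differed by -1.11 log2 (SE 0.397, adjusted p = 0.135), Zim1 by -0.78 (SE 0.351, adjusted p = 0.237), Krt19 by -1.16 (adjusted p = 0.112) and Krt8 by -0.52 (adjusted p = 0.344). On the 2 remaining WT arrays both Zim1 and Peg3 still lay above all 3 TonEBP +/- arrays. The neutrophil list lay higher on all AF arrays of TonEBP +/- than on those of WT. Of the 9 AF and tendon markers 3 rose there (Col1a1, Col1a2 and Lum) and 2 fell (Fmod by 2.11 log2 and Aspn by 2.06), with a median of -0.20 log2. The part of these markers, of the cartilage markers and of the NP markers in the differences of Peg3 and Zim1 was not tested. In bulk tissue, fewer cells of a type and less RNA per cell cannot be told apart.

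**Figure D3:**
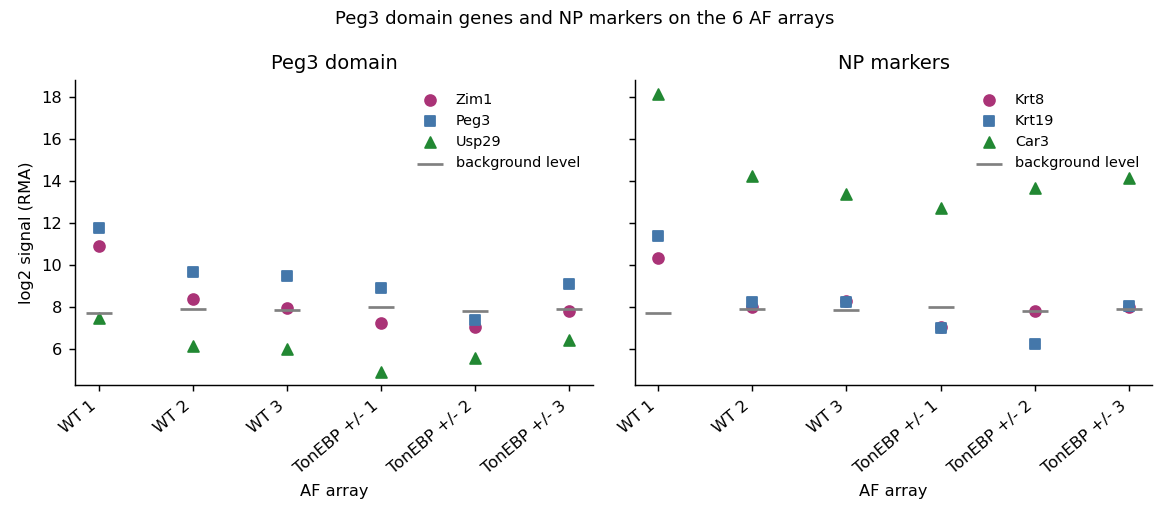
Log2 signal of Zim1, Peg3, Usp29 and NP markers on the 6 AF arrays. AF array 1 of WT is the highest of the 6 for Zim1 (10.92), Peg3 (11.77), Krt19 (11.37) and Car3 (18.17).

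The other members showed smaller differences between the genotypes in AF, and none passed (limma, n = 3 per genotype). Grb10 differed by 0.33 log2 (95% CI -0.22 to 0.88, adjusted p = 0.481), Igf2r by -0.08 (-0.67 to 0.50, adjusted p = 0.891) and Igf2 by -0.29 (adjusted p = 0.585), with overlapping groups. Dlk1 differed by -0.85 (adjusted p = 0.0599), but it, Cdkn1c (-0.41, adjusted p = 0.299), Plagl1 (0.19, adjusted p = 0.710) and Mest (-0.26, adjusted p = 0.555) were above background on no AF array. At an unadjusted p under 0.05 there were 3 members, Zim1, Peg3 and Dlk1, beside 23.2% of all clusters.

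In NP, where Zim1 and Peg3 were high, neither passed a test of genotype. Zim1 differed by -0.24 log2 (95% CI -1.41 to 0.94) and Peg3 by -0.12 (-1.19 to 0.94), so a 2-fold loss (-1 log2) lies inside both intervals. Both intervals use 1 spread per gene, pooled over the 4 groups of both tissues. The SDs of Peg3 were 0.0861 (WT) and 0.310 (TonEBP +/-) in NP against 1.27 and 0.936 in AF. Those of Zim1 were 0.189 and 0.661 against 1.61 and 0.402. The interval of Peg3 is thus set mainly by AF, and 1 from the NP arrays alone is not given. With limma, 0 of 9 members passed, each with adjusted p = 1, beside 0.113% of all clusters, and 1 member, Dlk1, had an unadjusted p under 0.05, as did 3.72% of all clusters. Igf2r lay higher on all 3 TonEBP +/- arrays than on any WT array, by 0.49 log2 (SE 0.275, 95% CI -0.10 to 1.07). The SDs of Igf2r were 0.0653 (WT) and 0.0999 (TonEBP +/-) in NP against 0.383 and 0.560 in AF. This SE and interval are thus also set mainly by AF and do not measure the spread of Igf2r in NP. Dlk1 too lay higher on all 3 TonEBP +/- arrays, by 0.57 log2, all below background, and 5.34% of all clusters were higher without overlap. Grb10 differed by 0.04 log2 (-0.51 to 0.59), Plagl1 by -0.09, Cdkn1c by 0.23, Igf2 by 0.01 and Mest by 0.15. The neutrophil list, lower on NP arrays of TonEBP +/- than of WT (8.54 to 10.1 against 10.8 to 12.2), and the erythroid list (6.92 to 7.06 against 8.11 to 9.30) moved with genotype in NP, and their part in these differences was not tested.

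The genotype difference itself was compared between the tissues by the interaction term. It was 1.72 log2 for Peg3 (NP minus AF, 95% CI 0.21 to 3.22, adjusted p = 0.277), 1.46 for Zim1 (adjusted p = 0.431), 0.57 for Igf2r (adjusted p = 0.558) and 1.43 for Dlk1 (adjusted p = 0.0823). With limma, 0 of 9 members passed, beside 0.887% of all clusters, and 2, Peg3 and Dlk1, had an unadjusted p under 0.05, as did 14.0% of all clusters. The lower signal of Peg3 in AF of TonEBP +/- is therefore not shown to differ from the difference in NP.

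**Figure D4:**
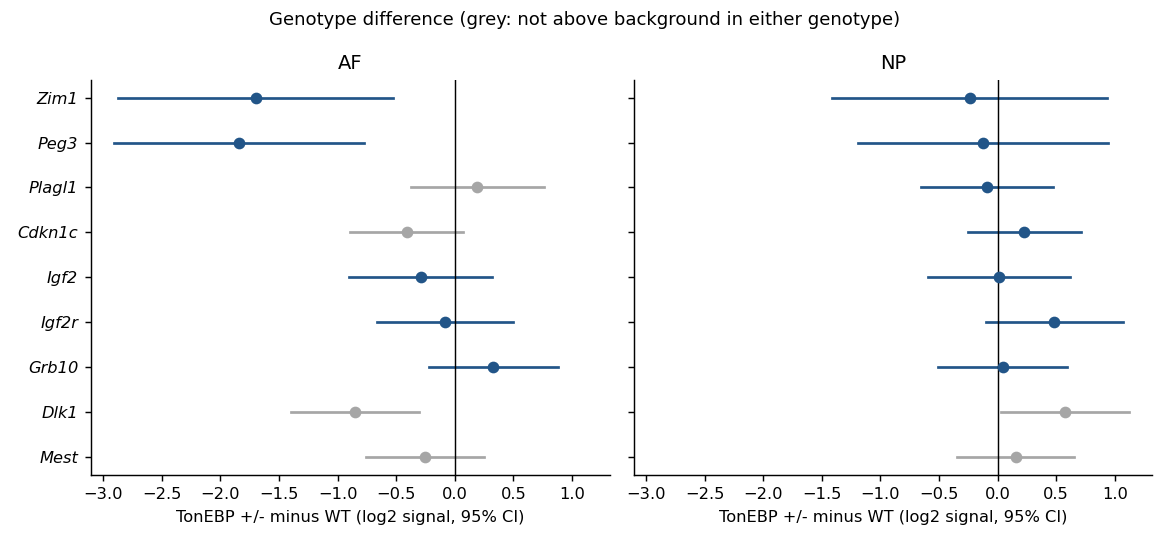
TonEBP +/- minus WT in log2 for the 9 measured members, in AF and in NP, with 95% confidence intervals. Peg3 (-1.84) and Zim1 (-1.70) lie lowest in AF, and in NP the intervals of all members but Dlk1 include 0.

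The clusters whose 12 values most resembled those of Zim1, after centring each on its own mean, were Krt8 (root mean square difference 0.398 log2), Pde1a (0.474), Gpc3 (0.508), Tmem255a (0.518) and Krt19 (0.527). Krt8 and Krt19 are keratins that mark NP cells. Gpc3 is a cell surface glypican, and Pde1a a cyclic nucleotide phosphodiesterase. Peg3 was the 7th nearest to Zim1, at 0.580. Nearest to Peg3 were Ppp1r3c (0.457), a glycogen-targeting subunit of protein phosphatase 1, Slc15a5 (0.488), Tmem163 (0.510), Angptl1 (0.518) and Tmem106a (0.533), with Zim1 the 9th. Among these 10 genes, Krt19 and Ppp1r3c (-1.45 log2, limma adjusted p = 0.0433) passed the genotype test in AF, beside 6.07% of all clusters. They were chosen by likeness over all 12 arrays, the AF arrays included. A shared genotype difference in AF is thus partly set by the choice and is no separate evidence.

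Among other imprinted genes listed as read from the paternal copy (17 of 23 measured), 7 were called higher and 9 lower in NP than in AF in WT, and 8 and 8 in TonEBP +/-. Of those above background on all 3 arrays of a tissue, 6 were higher and 1 lower in either genotype, so nearly all lower calls were of genes that did not reach this level in either tissue. This filter favours genes high in 1 tissue: Usp29, Sgce, Slc38a4, Ndn and Nap1l5 passed it through NP alone. The share of all clusters under the same filter was not computed, so these counts are no result about the list. The same limit holds for the counts above background of the lists that follow. Over all clusters 22.2% were higher and 56.1% lower in WT, 20.0% and 54.4% in TonEBP +/-. With array medians subtracted, the paternal list had 8 higher and 3 lower in either genotype. In that scaling all clusters were 51.8% higher of those called in WT, against 28.3% as deposited, and 54.9% against 26.9% in TonEBP +/-. Beside Usp29, the amino acid transporter Slc38a4 was at least 8.19-fold higher in NP of WT and 9.81-fold in TonEBP +/-, the sarcoglycan Sgce 4.00 log2 in WT and at least 17.2-fold in TonEBP +/-, and the neuronal MAGE family gene Ndn at least 9.25-fold and 8.99-fold. Rasgrf1, an exchange factor for Ras, was lower in NP by -1.16 and -0.96 log2, and by -0.42 and -0.27 with array medians subtracted.

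Of 20 measured genes listed as read from the maternal copy in at least some tissues (25 listed), 7 were called higher and 9 lower in NP of WT, and 7 and 8 in TonEBP +/-. Which copy these genes are read from in the disc was not measured. Over all clusters 22.2% were higher and 56.1% lower in WT, and 20.0% and 54.4% in TonEBP +/-. Above background, 7 were higher and 1 lower in either genotype. With array medians subtracted the counts over all 20 genes became 10 and 3, and 8 and 4. The tetraspanin Cd81 was higher by 4.14 log2 in WT and 3.88 in TonEBP +/-, Cobl, an actin nucleator beside Grb10, by 3.53 and 4.41, the phospholipid flippase Atp10a by 3.00 and 3.75, and Gnas, the stimulatory G protein subunit, by 1.97 and 2.03. By genotype, 0 of the 37 genes of both lists passed in AF, in NP or in the interaction (limma, lowest adjusted p = 0.0858, in the maternal list in AF). At an unadjusted p under 0.05 the paternal list had 3, 1 and 2 genes in those comparisons and the maternal list 2, 0 and 1, beside 23.2%, 3.72% and 14.0% of all clusters. Their median genotype differences in AF were -0.21 and -0.02 log2, beside -0.04 over all clusters.

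The rest of the insulin-like growth factor axis, 19 of 21 listed genes measured, had 4 genes called higher and 14 lower in NP of WT and 4 and 11 in TonEBP +/-. Of its calls 22.2% and 26.7% were higher, near the 28.3% and 26.9% over all clusters. Above background, 3 were higher and 6 lower in WT, and 4 and 6 in TonEBP +/-. With array medians subtracted the counts were 5 and 7, and 5 and 8. The adaptor Irs2 and the receptors Igf1r and Insr were higher in NP, by 2.72, 2.03 and 1.85 log2 in WT and 2.86, 1.89 and 1.27 in TonEBP +/-. The ligand Igf1 was lower by -1.54 and -1.83. The binding proteins Igfbp5 and Igfbp4, which hold the ligands in the matrix and in solution, were also lower. Igfbp5 was at least 15.4-fold lower in NP of WT and 13.3-fold in TonEBP +/-, and Igfbp4 by -2.50 log2 in WT and at least 12.7-fold in TonEBP +/-. Not all binding proteins ran this way. Igfbp2 was lower in NP by -2.14 log2 in WT and -1.20 in TonEBP +/-, but Igfbp6 was higher by 0.41 and 1.40. Igfbp7 differed by -1.17 and 0.09.

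By genotype, 2 genes of this axis rose in AF of TonEBP +/- and 1 fell, of 19, beside 2.76% and 3.31% of all clusters. Pappa, the protease that cleaves Igfbp4, read 6.69, 6.88 and 6.00 in AF of WT, all below background, and 8.08, 8.01 and 8.72 in TonEBP +/-. The groups did not overlap, and the difference was 1.75 log2 (SE 0.271, adjusted p = 0.00772), or at least 1.36-fold over the background level. Pappa passed in each of the 12 fits that left out 1 array (adjusted p 0.00208 to 0.0296), and with the AF arrays alone its adjusted p was 0.0961. Its difference in NP, where it was below background, departed from that in AF by -1.78 log2 (adjusted p = 0.0415, beside 0.766% of all clusters that were lower in the interaction), a call that 2 of 12 omissions kept. Igfbp4 itself read 9.88, 9.72 and 9.91 in AF of WT and 10.50, 10.58 and 11.46 in TonEBP +/-, a rise of 1.01 log2 (SE 0.251, adjusted p = 0.0313) that passed in 7 of 12 omissions. It did not pass when AF array 1, 2 or 3 of WT, or AF array 1 or 3 of TonEBP +/-, was left out, with adjusted p up to 0.125, nor with the AF arrays alone (adjusted p = 0.143). Igfals, which passed as lower (-0.93, adjusted p = 0.0470), was above background on no AF array, so no level is behind that difference. In NP 0 of 19 passed with limma, and 0 had an unadjusted p under 0.05.

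Relatives of the members that are not imprinted, 8 of 8 measured, had 3 genes called higher and 4 lower in NP of WT and 2 and 5 in TonEBP +/-. Over all clusters 22.2% were higher and 56.1% lower in WT, and 20.0% and 54.4% in TonEBP +/-, so these counts are no result about the relatives. Above background, 3 were higher and 1 lower in WT, and 2 and 2 in TonEBP +/-. M6pr, the other mannose-6-phosphate receptor, was higher by 1.45 log2 in WT and 0.59 in TonEBP +/-, where quantile normalization gave -0.05. The adaptor Grb14 was higher, and Plagl2 was lower by -1.64 and -1.69. Of 12 Notch pathway genes, which Dlk1 is related to, 10 were lower in NP of WT and 11 in TonEBP +/-, with 0 and 1 higher. Above background 2 were lower in either genotype and 0 and 1 higher, and over all clusters 56.1% and 54.4% were lower. With array medians subtracted 6 were lower and 1 higher in each genotype. Notch2, a receptor, was lower by -2.23 and -2.72 log2. Neither list held a gene that passed by genotype in AF, NP or the interaction (limma, 0 of 8 and 0 of 12). At an unadjusted p under 0.05 the relatives had 1, 0 and 1 and the Notch list 1, 0 and 2, beside the same shares of all clusters.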

How the data were processed

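The deposited values are log2 signals, 1 for each combination of probe set and array, which the authors computed with Affymetrix Expression Console and RMA, per the submitters' processing notes. RMA corrects background, normalizes arrays together and summarizes probes. Which arrays were normalized together is not given in the sources used here. Array medians differ between the tissues, so differences between AF and NP depend on the scaling. The labels name no batch, sex or animal number.

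Of 28846 probe sets, 6640 controls were left out and 22206 clusters tested. Symbols were taken from the platform's gene table and RefSeq (19572 clusters named, 2634 not). In R 4.3.3 with limma 3.58.1, 4 group means were fitted to all 12 arrays (8 residual degrees of freedom, 7.93 prior), with eBayes without trend. P-values were adjusted by Benjamini and Hochberg over all clusters and called under 0.05. They measure the spread between samples of 3 animals per group. This number limits the precision.

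Where 0 of 3 arrays of a group exceeded background, a fold is given against the mean over its arrays of the higher of background level and own signal (at least N-fold), and none where both groups were so. No 2 arrays were duplicates (smallest SD of a difference 0.414 log2).

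The members and lists were chosen with earlier results of these data known. Named in each list were up to 6 called genes a direction, by size, above background on all arrays of at least 1 group. The 5 nearest clusters to Zim1 and Peg3 were named too. For space, some are given only in counts. Alternatives were other scalings, array weights, a trended and robust fit, a filter on dim clusters, 1 tissue alone, and each array left out. The fit was tested on simulated data. Python 3.11.15 and matplotlib 3.10.9 drew the figures.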

Additional observations from a re-analysis of the deposited data

Results flagged for a closer look

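Dlk1 is singled out because its arrays moved in opposite directions in the tissues: all 3 TonEBP +/- arrays lay below all WT arrays in AF (6.13, 6.58 and 6.21 against 7.08, 7.17 and 7.24 log2) and above them in NP (6.29, 5.53 and 5.25 against 5.04, 5.07 and 5.23). The difference of the differences was 1.43 log2, NP minus AF, with limma adjusted p = 0.0823. Dlk1 was above background on no array, so no level is behind these values.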

How the results depend on the processing

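The number of members called in AF (1, Peg3) was 0 with array medians subtracted (Peg3 -1.75 log2, adjusted p = 0.0588) and 0 with the AF arrays alone, where 3 of all clusters were called. It was 6 with array weights (Zim1, Peg3, Dlk1, Cdkn1c, Plagl1 and Igf2r), which gave AF array 1 of TonEBP +/- a weight of 19.9 against 0.248 to 1.34 for the others. Leaving out 1 array gave 0 to 2 members. Zim1 passed in AF in 2 of 18 alternatives, with array weights and without AF array 3 of WT (adjusted p 0.00538 to 0.237 over all). Dlk1 passed in AF without AF array 2 of TonEBP +/- and without NP array 1 of TonEBP +/-. Clusters called in AF, 1347 in all, ran from 81 to 4029 over omissions, and were 1276 with medians subtracted, 1982 after quantile normalization and 7187 with array weights. In NP 0 members passed under any alternative, while all clusters called, 25 in the fit reported, ran from 2 to 79 over omissions, with 13 after subtracting medians, 81 with array weights and 0 with the NP arrays alone. In the interaction, 2 members (Dlk1 and Igf2r) passed with array weights, with 2503 clusters called against 197, and omissions gave 0 to 1 (Dlk1, 1.56 log2, adjusted p = 0.0251, without AF array 2 of TonEBP +/-) and 22 to 1319 clusters. The 6 members higher in NP without overlap were 6 under every scaling, filter and omission tried. Leaving out an array cannot close such a gap, so the omissions could not lower this count. Nor could the filter, which kept clusters above background on 3 arrays, as these members were in NP. Subtracting medians raised NP against AF. Between NP and AF of TonEBP +/-, Igf2 turned to 0.031 log2 with medians subtracted, and Dlk1 to 0.074 so and 0.38 after quantile normalization; the cause was not tested. Over scalings, weights, filter and omissions the difference of Zim1 in WT kept its direction. Another probe set of a member could not be tried, since each has 1. List counts under other scalings, the omission of AF array 1 of WT for NP markers, and the omissions for Pappa, Igfbp4 and Igfals were chosen after seeing the data. No paired analysis was possible because the labels give the groups no shared replicate numbers and never say which AF and NP samples share an animal.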
